A study of Mus musculus with 46 samples.

Results

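Open chromatin was compared between 3 ATAC libraries of mouse microglia, taken from the resting adult, from proliferating cells of the postnatal day 8 brain (PND8), and from proliferating cells of adults whose microglia were growing back after drug depletion. They are 3 of the 46 samples of the series, and each group is 1 library, so every ATAC comparison below is a description of these libraries with no test and no error between replicates. The adult library came from male C57BL/6 mice of 80 days without treatment, and its cells carry the label Ki67-Negative. The PND8 library came from Ki67-Positive cells of males of 8 days. The repopulating library came from Ki67-Positive cells of males of 75 days that were fed PLX5622 from 55 days of age for 17 days and then recovered for 3 days. The age is that of its labels, while the name of its peak list gives PND80. The titles of the PND8 and repopulating libraries name the Ki67rfp reporter line and that of the adult names C57, whereas the genotype tag of all 3 reads WT, so mouse line, Ki67 state and age or treatment cannot be told apart between the adult and the other libraries. Ki67 is made by cycling cells, and the Ki67-Positive groups were chosen by that state. A header run code is shared by the adult and PND8 lists and differs for the repopulating list. Nothing says how many animals were pooled.

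ATAC-seq uses a transposase that inserts sequencing adapters where DNA is not covered by nucleosomes, so a pile of reads, called a peak, marks an accessible stretch such as an active promoter or enhancer. Microglia are the resident macrophages of the brain; PU.1, a factor of the ETS family, sets up most of their enhancers, with partners such as IRF8 and SALL1. They multiply in the first postnatal weeks and again when survivors refill the brain after a CSF1R inhibitor such as PLX5622 has been withdrawn, since they need CSF1R signalling to live. S phase promoters are classic targets of E2F factors, promoters of G2/M genes carry CCAAT boxes bound by NF-Y, and interferon-stimulated genes are driven through interferon-stimulated response elements (ISRE) bound by STAT and IRF factors.

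The peak lists held 71596 peaks in the adult, 75270 in PND8 and 95377 in the repopulating library on the main chromosomes, at 6676695, 7376675 and 8585406 total tags (aligned reads, counted at most once per position). The share of tags that lay in peaks was 43.62% in the adult, 31.28% in PND8 and 39.26% in the repopulating library. Overlapping peaks were merged into 110626 sites, of which 21076 lay within 1 kb of a transcript start (promoter sites) and 89550 lay farther away (distal sites). The peak lists contain tags in peaks only. A site with no peak in a library is therefore not a site with no tags, and its value is given below as "no peak". Of 25 homeostatic microglial genes 22 had a promoter peak in all 3 lists, against 54.6% of all 20999 gene promoters. Of the lists of other cell types, 10 genes each, promoter peaks were absent from every library for 8 lymphocyte, 8 erythroid, 7 neuronal, 6 monocyte or neutrophil, 5 astrocyte, 4 endothelial, 3 oligodendrocyte and 3 border macrophage genes. Over all gene promoters 38.0% had no peak in any library. The endothelial, oligodendrocyte and border macrophage counts were near or below that share and do not show that such cells were lacking.

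The promoters shown first are those on which the comparison turns: promoters of cycling genes that were open in all 3 libraries, interferon promoters with and without a peak, and 2 microglial promoters that differed. Each is 300 bases from RefSeq (GRCm38.p6), from 250 bases before to 50 after the transcript start, printed 5′ to 3′ on the gene's strand. Capitals mark exact matches on either strand of the motif named in each sentence. The pair of G2/M promoters, of Top2a (topoisomerase II alpha, chr11:99024140-99024439, minus strand) and Ccnb1 (cyclin B1, chr13:100786437-100786736, minus strand), are shown for the NF-Y letters CCAAT.
Top2a: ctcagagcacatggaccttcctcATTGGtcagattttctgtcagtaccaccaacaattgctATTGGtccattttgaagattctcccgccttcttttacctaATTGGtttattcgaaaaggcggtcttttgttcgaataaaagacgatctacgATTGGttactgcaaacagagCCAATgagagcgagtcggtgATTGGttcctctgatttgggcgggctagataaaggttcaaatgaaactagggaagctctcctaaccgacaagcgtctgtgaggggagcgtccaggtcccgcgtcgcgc
Ccnb1: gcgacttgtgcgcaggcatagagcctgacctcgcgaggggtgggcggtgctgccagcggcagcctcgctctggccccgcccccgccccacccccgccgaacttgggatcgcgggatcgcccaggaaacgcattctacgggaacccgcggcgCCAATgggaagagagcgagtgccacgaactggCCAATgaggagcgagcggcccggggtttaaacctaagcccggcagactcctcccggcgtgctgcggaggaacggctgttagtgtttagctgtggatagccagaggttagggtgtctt
The S phase promoter of Uhrf1, which brings DNA methyltransferase to new DNA (chr17:56303087-56303386, plus strand), is shown for the E2F letters GCGGGAA, matched once and on the opposite strand.
Uhrf1: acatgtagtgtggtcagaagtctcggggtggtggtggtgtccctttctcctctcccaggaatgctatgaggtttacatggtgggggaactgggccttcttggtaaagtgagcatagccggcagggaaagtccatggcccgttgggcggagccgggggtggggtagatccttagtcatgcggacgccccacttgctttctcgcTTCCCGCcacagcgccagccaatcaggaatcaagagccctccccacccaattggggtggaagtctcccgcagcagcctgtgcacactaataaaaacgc
The interferon promoters are Ifit3, an antiviral RNA-binding protein (chr19:34583279-34583578, plus strand, a peak in all 3 libraries), Oas1a, a 2′-5′ oligoadenylate synthetase (chr5:120907476-120907775, minus strand, no peak in the adult), and Isg15, a ubiquitin-like modifier (chr4:156200769-156201068, minus strand, no peak in any library). They are shown for the ISRE letters GAAANNGAA, whose matches overlap each other in Oas1a and Isg15.
Ifit3: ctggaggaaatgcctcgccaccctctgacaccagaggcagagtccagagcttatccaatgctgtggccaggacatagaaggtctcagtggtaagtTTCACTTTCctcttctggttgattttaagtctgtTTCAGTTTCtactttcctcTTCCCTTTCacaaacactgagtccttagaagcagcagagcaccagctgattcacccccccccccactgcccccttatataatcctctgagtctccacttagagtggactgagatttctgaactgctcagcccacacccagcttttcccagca
Oas1a: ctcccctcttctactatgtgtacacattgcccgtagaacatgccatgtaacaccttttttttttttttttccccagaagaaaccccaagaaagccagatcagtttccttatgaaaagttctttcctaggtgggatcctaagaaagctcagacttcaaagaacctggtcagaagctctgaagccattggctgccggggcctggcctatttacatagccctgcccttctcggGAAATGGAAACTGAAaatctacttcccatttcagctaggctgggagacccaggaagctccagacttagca
Isg15: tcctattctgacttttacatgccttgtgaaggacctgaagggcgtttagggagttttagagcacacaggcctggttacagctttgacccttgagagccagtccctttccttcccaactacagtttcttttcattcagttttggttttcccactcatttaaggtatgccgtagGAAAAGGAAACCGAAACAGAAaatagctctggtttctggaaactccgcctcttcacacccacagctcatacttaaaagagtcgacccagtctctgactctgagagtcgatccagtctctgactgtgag
The last pair are P2ry12, the purinergic receptor of resting microglia (chr3:59262936-59263235, minus strand, no peak in the adult), and Spp1, osteopontin (chr5:104434861-104435160, plus strand), shown for the PU.1 letters AGGAAGT.
P2ry12: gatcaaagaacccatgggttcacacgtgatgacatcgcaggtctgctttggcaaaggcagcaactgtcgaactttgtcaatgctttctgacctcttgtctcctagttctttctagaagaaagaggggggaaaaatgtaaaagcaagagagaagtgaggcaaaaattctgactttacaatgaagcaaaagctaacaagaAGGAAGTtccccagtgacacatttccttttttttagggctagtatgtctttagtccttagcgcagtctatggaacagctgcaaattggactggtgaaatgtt
Spp1: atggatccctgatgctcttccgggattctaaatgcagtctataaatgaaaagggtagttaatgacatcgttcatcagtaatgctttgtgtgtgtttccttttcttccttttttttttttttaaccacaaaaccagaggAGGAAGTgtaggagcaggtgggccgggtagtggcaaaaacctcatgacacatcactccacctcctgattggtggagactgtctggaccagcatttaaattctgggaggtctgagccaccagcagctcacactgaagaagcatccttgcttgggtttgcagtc
A sequence was found for 15982 of the 20999 gene promoters, or 76.1%. The ISRE letters were present in 12 of 17 interferon promoters with a sequence (70.6%), against 8.06% of all promoters of the same length. CCAAT was present in 17 of 19 G2/M promoters (89.5%) against 38.6%, and GCGGGAA in 10 of 20 S phase promoters (50.0%) against 6.48%. By contrast, among the 442 promoters open in PND8 and repopulating cells but without an adult peak, CCAAT was present in 31.7%, GCGGGAA in 9.05%, AGGAAGT in 9.5% (all promoters 9.20%) and GAAANNGAA in 5.20%. A match is a stretch of letters and not evidence that a factor binds there, and distal sites could not be searched because no genome was used here.

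The 3 libraries shared most promoters and fewer than 1 in 2 distal sites. Of the promoter sites, 13890 (65.9%) had a peak in all 3 libraries. Of the distal sites, 40092 (44.8%) did. The distal sites found in 1 library or a pair were led by 17688 in repopulating cells alone (19.8%) and 11325 in PND8 and repopulating cells together (12.6%). A further 7514 (8.39%) were in adult and repopulating cells, 5736 (6.41%) in the adult alone, 5426 (6.06%) in PND8 alone and 1769 (1.98%) in adult and PND8. At promoters the same order began with repopulating alone at 2283 sites (10.8%) and PND8 with repopulating at 1438 (6.82%), and ended with 460 (2.18%) in adult and PND8. The longest list had the most sites of its own, and the order changed when each list was limited to its 71596 highest-scoring peaks: adult alone then led among single libraries with 8949 distal sites (11.8%), PND8 alone had 7811 (10.3%) and repopulating alone 6222 (8.23%). PND8 with repopulating cells remained the most frequent pair at 6421 distal sites (8.50%), against 5224 (6.91%) for adult with repopulating and 4217 (5.58%) for adult with PND8. With equal numbers, 80.8% of PND8 and repopulating peaks lay in common sites, 79.0% for adult and repopulating, and 77.1% for adult and PND8.

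**Figure D1:**
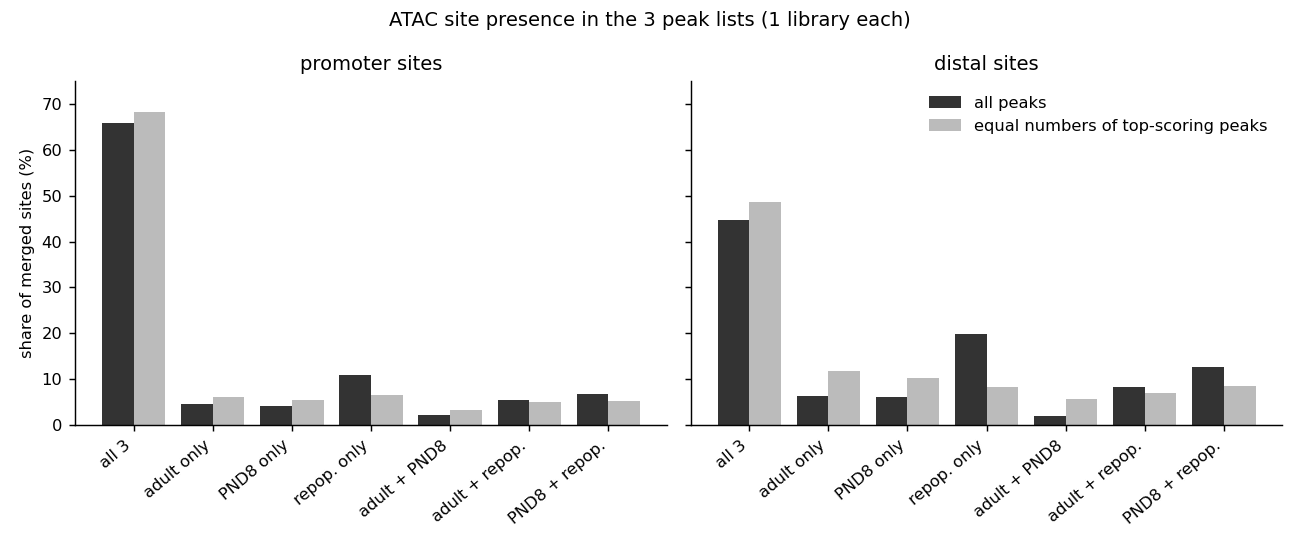
Share of merged sites (percent, vertical axis) in each class of libraries with a peak, for promoter and distal sites. Dark bars use all peaks and light bars the 71596 highest-scoring peaks of each list. Sites in all 3 libraries make up 65.9% of promoter and 44.8% of distal sites with all peaks, and the class of repopulating cells alone shrinks from 19.8% to 8.23% of distal sites with equal numbers.

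Sites found in 1 library were weak. Distal sites in all 3 libraries had a median of 26 tags in the adult, 21 in PND8 and 32 in repopulating cells. By contrast, the median of sites in 1 library alone was 10, 8 and 9 tags. Tags printed here and below are not scaled to the library total, so their order between libraries can change with scaling. Scaled to a common total, the medians of the shared distal sites were 38.9 in the adult, 28.5 in PND8 and 37.3 in repopulating cells. Those of sites in 1 library alone were 15, 10.8 and 10.5. The 19971 sites of repopulating cells alone were 20.9% of the sites of that list and held 7.0% of its peak tags. The 6726 of the adult alone held 3.51% and the 6296 of PND8 alone 2.97%. The chance of finding a partner followed the tag count: of adult distal sites with under 10 tags 51.5% had a PND8 peak, of those with 20 to 49 tags 88.0%, and of those with at least 100 tags 99.1%. A minimum of 20 tags left 732 of 5736 distal sites of the adult alone (12.8%), 154 of PND8 alone (2.84%), 1269 of repopulating alone (7.17%), 726 of PND8 with repopulating (6.41%) and 864 of adult with repopulating (11.5%).

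Many strong sites of 1 library lay beside a peak of the others. Whether such a pair is 1 shifted site was not tested. At promoters, 101 of the 103 adult-alone sites with at least 50 tags had another library's peak within 1 kb, as did 72 of 72 in PND8 and 87 of 87 in repopulating cells. Of all such promoter sites, whatever their tags, 93.1%, 82.3% and 73.5% had one. At distal sites with at least 50 tags these were 55 of 76, 17 of 17 and 58 of 69, against 44.3%, 23.4% and 24.0% of all. The strongest adult-alone promoter site, at Hmgcs1, an enzyme of cholesterol synthesis (chr13:119690227-119690339), had 513 tags. Next to it, at chr13:119690088-119690206, PND8 had 310 and repopulating cells 365. Ifrd1 in PND8 (245 tags, beside 307 in the adult and 261 in repopulating cells) and Dnpep in repopulating cells (207, beside 290 and 180 in adult and PND8) were of the same kind. Genes were therefore named below from sites with no peak of another library within 1 kb of their centre. Of those with at least 20 tags there were 15 promoter and 310 distal sites in the adult alone, 4 and 46 in PND8 alone, 51 and 687 in repopulating alone, 3 and 37 in adult with PND8, 27 and 458 in adult with repopulating, and 58 and 545 in PND8 with repopulating.

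RNA of the same 3 states was used beside each site, from 2 libraries per group; nothing says that these came from separate animals, so their p-values measure the spread between libraries, which may be technical. The adult RNA libraries came from untreated C57 males of 90 days labelled Ki67-Negative, and the PND8 (8 days) and repopulating (75 days, same diet) libraries from Ki67-Positive cells of Ki67-rfp males. Mki67, which encodes Ki67, had 13.4 and 11 CPM (counts scaled to a common library total) in the adult, 920 and 1107 in PND8 and 930 and 1087 in repopulating libraries, in the order of the sort labels. The Ki67-Negative RNA libraries of the reporter line, used below for single genes, had 242 and 282 CPM at PND8 and 336 and 463 in repopulating brains. Their label thus did not mean Mki67 RNA as low as in the adult. Of 12230 genes tested with edgeR, 3073 (25.1%) were higher and 2976 (24.3%) lower in PND8 than in the adult, 2918 (23.9%) were higher and 2571 (21%) lower in repopulating cells than in the adult, and 2040 (16.7%) were higher and 1738 (14.2%) lower in repopulating cells than in PND8, at an adjusted p under 0.05. Without 1 library, the last of these comparisons fell from 3778 calls to between 2269 and 2632, and that of repopulating cells and the adult from 5489 to 3640 without repopulating replicate 2. The adult RNA libraries carry a header run code of their own, so run and group cannot be told apart against them. Marker RNA of other cells was uneven: the 10 monocyte or neutrophil genes summed to 225 and 68.7 CPM in the adult libraries, 17.8 and 19.1 in PND8 and 5.78 and 6.77 in repopulating cells, and its part in the calls was not tested.

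The strongest lone adult sites included a group of genes on chromosome 7. Trim30d, a tripartite motif family member, had 186 adult tags at its promoter (chr7:104507848-104507960) and no other peak nearer than 2.033 kb. Its RNA stood at 126 and 120 CPM in the adult, 0.330 and 0.809 in PND8 and 3.12 and 3.02 in repopulating cells. The groups did not overlap, and the log2 differences were -7.73 ± 0.25 (SE) for PND8 and -5.32 ± 0.20 for repopulating cells against the adult (edgeR quasi-likelihood, adjusted p = 1.5e-10 and 8.5e-10). Ki67-Negative cells of the reporter line had as little: 0.618 and 0.367 CPM at PND8, 5.20 and 5.94 in repopulating brains. The Trim30d promoter had an H3K27ac region in all 6 libraries of that mark, whose titles name C57 for every group. Gvin1, an interferon-inducible GTPase gene (chr7:105953982-105954094), had 74 adult tags with the nearest other peak 137.14 kb away, and RNA of 8.91 and 9.41 CPM in the adult, 2.42 and 2.31 in PND8 and 6.48 and 7.05 in repopulating cells. The fall passed the test in PND8 (log2 -1.94 ± 0.31, edgeR adjusted p = 0.00017) and missed it in repopulating cells (log2 -0.44, adjusted p = 0.22). A distal adult site of 121 tags near Gm1966 (chr7:106617067-106617179, 27.466 kb from the start) accompanied RNA of 18.6 and 15.5 CPM in the adult, 1.87 and 2.54 in PND8 and 3.12 and 2.73 in repopulating cells. Near Olfr630, an olfactory receptor, a site of 116 tags (chr7:103762398-103762510) had no measured RNA beside it. The strongest lone distal site of the adult lay elsewhere, 173.707 kb from the start of Tpbg (250 tags, chr9:86016087-86016199), a gene below the RNA filter. The other lone adult promoters with the highest tags were Ifnz (45), Fbxo11 (34) and Lrp5 (34).

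The lone sites of PND8 were few and weak, and the clearest belonged to Igf2bp3. This gene encodes an RNA-binding protein typical of fetal tissue. Its promoter site (chr6:49215449-49215567, 0.495 kb from the start) had 34 tags in PND8 and no peak in the adult or repopulating library. A second site, 3.081 kb from the start (chr6:49218035-49218205), had 56 tags in PND8, 7 in repopulating cells and no peak in the adult. Igf2bp3 RNA was 2.54 and 2.81 CPM in the adult, 129 and 160 in PND8 and 4.63 and 6.91 in repopulating cells. PND8 stood apart from both, at log2 5.75 ± 0.20 against the adult and -4.67 ± 0.18 for repopulating cells against PND8. H3K27ac was found at both Igf2bp3 sites in both PND8 libraries and in none of the adult or repopulating ones. Ki67-Negative cells at PND8 also had the RNA, at 80.1 and 81.6 CPM. The other strongest of 154 lone PND8 promoter sites were Zswim6 (38 tags), Pheta2 (22), Sez6 (21) and, below 20 tags, Adcy4 (17), and the strongest lone distal sites were near Junb (47 tags, 3.483 kb), Cyb5a (43) and Zcchc2 (39).

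Repopulating cells had the most lone sites. The promoters of highest tags were Osbpl2 (46), Klf6 (40), Stim2 (40), Ifi30, a lysosomal thiol reductase (37), and Ccl3, a chemokine (35). Among the distal ones were Kctd12 (86 tags), Tmem154 (61 tags, 37.304 kb), Slc9b2 (57), Edem1 (56) and Kcnrg (55). Tmem154 RNA was higher in repopulating cells than in the adult by log2 2.44 and in PND8 by 1.70, both past the threshold, and H3K27ac at its site was found in both repopulating libraries only. Kcnrg RNA was lower in PND8 by log2 -3.19 and close to the adult level in repopulating cells (log2 -0.07, not called).

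Pairs of libraries also shared sites that the remaining one lacked. In adult and repopulating cells without PND8, promoters with the most tags included Impact (73 and 55 tags), Dnajb14 (58 and 48), Mtus1 (71 and 43) and Csf1r, the growth factor receptor on which microglia depend (38 and 50). Csf1r RNA did not follow: 1613 and 1643 CPM in the adult, 1458 and 1439 in PND8 and 1545 and 1717 in repopulating cells (PND8 against adult, log2 -0.17, edgeR adjusted p = 0.28), and the Csf1r promoter had H3K27ac in all 6 libraries. In PND8 and repopulating cells without the adult, P2ry12 (chr3:59262841-59263025) led with 56 and 86 tags, the nearest adult peak being 1.314 kb away. P2ry12 RNA differed little, at 967 and 963 CPM in the adult, 819 and 793 in PND8 and 787 and 805 in repopulating cells (PND8 against adult, log2 -0.26 ± 0.12, edgeR adjusted p = 0.081), and H3K27ac covered the site in all 6 libraries. Zfpm2 (43 and 53 tags), Vxn (48 and 49), Filip1 (42 and 75) and Disp3 (39 and 80) were the other promoters. The distal sites were led by one 1195 kb from the start of Lrrc4c (chr2:98662663-98662781, 471 and 236 tags), then those near E030018B13Rik (79 and 93) and H60b (91 and 83). The Lrrc4c site had H3K27ac in none of the 6 libraries. A site close to it (chr2:98665072-98665192) had 139 adult and 394 PND8 tags and no repopulating peak, the opposite class. What these Lrrc4c sites are was not tested. Adult and PND8 shared the fewest, among them Osm (26 and 24 tags), Dpp7 (25 and 20) and Galnt7 (30 and 20).

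Sites present in both libraries of a pair were compared by the ratio of their normalised tag counts, centred so that the median shared promoter site is 0 on the log2 scale. The median before centring was -0.47 for PND8 over adult, -0.33 for repopulating over adult and 0.13 for repopulating over PND8, an order that follows the share of tags in peaks. A 4-fold difference was rare, and most of them were gains over the adult. Of 56211 shared sites, 638 (1.14%) were at least 4-fold higher in PND8 than in the adult and 167 (0.297%) lower. For repopulating over adult these were 1032 (1.65%) and 109 (0.174%) of 62639, and for repopulating over PND8 204 (0.306%) and 70 (0.105%) of 66743. Distal sites made up 582 and 158 of the first pair, 942 and 103 of the second and 189 and 69 of the last. The excess of gains over the adult depends on the centring for PND8: without it 192 sites were higher and 768 lower, while repopulating over adult kept 466 higher and 304 lower.

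At promoters, Inhba, the activin A subunit, differed most upward with 6 tags in the adult, 41 in PND8 and 68 in repopulating cells: centred log2 ratios of 3.10 (95% exact counting interval 1.85 to 4.62) and 3.47. Intervals of this kind cover counting error only. They make no allowance for the choice of these sites as the largest ratios. Gpx3, a secreted glutathione peroxidase, had 8, 44 and 33 tags (log2 2.78, 1.68 to 4.08, PND8 over adult), and its RNA moved with it: 1.97 and 0.367 CPM in the adult, 115 and 131 in PND8 and 33 and 31.1 in repopulating cells. The differences were log2 6.68 ± 0.26 and 4.74 ± 0.29, with no overlap of any groups. Ncaph2, a condensin II subunit that compacts mitotic chromosomes, had 9, 51 and 69 tags and RNA higher by log2 0.93 and 0.91. Inhba, Flrt3 (8, 43 and 53 tags) and Nkain3 (8, 45 and 33) were below the RNA filter.

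The promoter lowest in PND8 was that of Hpgd, which degrades prostaglandins (chr8:56294458-56294653), with 153 tags in the adult, 14 in PND8 and 29 in repopulating cells (log2 -3.13, interval -4.03 to -2.34, PND8 over adult). Hpgd RNA ran in the same order, 227 and 239 CPM in the adult, 65.8 and 59.4 in PND8 and 173 and 132 in repopulating cells. Mlph, melanophilin, a linker of vesicles to myosin (chr1:90914992-90915118), had 101, 16 and 43 tags and RNA of 228 and 224 CPM in the adult, 11.7 and 11.1 in PND8 and 59.9 and 40.4 in repopulating cells, a difference of log2 -4.31 ± 0.21 and -2.16 ± 0.18 from the adult. Repopulating cells thus lay between the others for both genes in tags and in RNA. Chst8, a sulfotransferase (36, 6 and 25 tags), and Adgrg1, an adhesion receptor (72, 12 and 65), were also lower in PND8, with RNA lower by log2 -4.41 and -1.0. Slc10a6 had 117, 43 and 26 tags and H3K27ac in the adult libraries only.

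Repopulating cells and PND8 differed most at Hmgn3, a nucleosome-binding protein (chr9:83146567-83146704), with 47 tags in the adult, 7 in PND8 and 113 in repopulating cells (repopulating over PND8, log2 3.66, interval 2.57 to 5.01). Hmgn3 RNA was 3.47 and 1.47 CPM in the adult, 0.661 and 1.97 in PND8 and 16.8 and 21.2 in repopulating cells, high in the last group only. Pmp22 (39, 11 and 74 tags) had RNA of 275 and 270, 89.9 and 69.5, and 257 and 262 CPM in the same order, low in PND8 at both levels. Phf11a had no adult peak, 6 tags in PND8 and 47 in repopulating cells, and RNA of 1.85 and 0.611, 0.661 and 0.694, and 10.3 and 11.8 CPM. Lrig1 (13, 10 and 91 tags) showed no called RNA difference. Cxcr2, a neutrophil chemokine receptor, had a site of 7, 22 and 7 tags, and Apoc1, an apolipoprotein, one of 19, 25 and 8. RNA of both was seen in PND8 libraries: Cxcr2 at 0.347 and 0, 11.8 and 14.1, and 0.231 and 0 CPM, and Apoc1 at 0.116 and 0, 11.8 and 11.6, and 0.231 and 0. The 10 monocyte or neutrophil genes had promoter peaks in 1 case in the adult, 4 in PND8 and 2 in repopulating cells. Of the 7 with tested RNA, 1 was higher and 6 were lower in PND8 than in the adult (all genes 25.1% and 24.3%). The part of such cells in the PND8 values was not tested.

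The largest ratios were distal. A site 17.229 kb from the start of Alcam, a cell adhesion molecule (chr16:52470310-52470461), had 5 tags in the adult, 29 in PND8 and 154 in repopulating cells (repopulating over adult, log2 4.91, interval 3.65 to 6.55). Alcam RNA was 1.27 and 0.855 CPM in the adult, 0.441 and 0.925 in PND8 and 17.1 and 24.5 in repopulating cells. Only the repopulating libraries were high, and the RNA difference from the adult was log2 4.26 ± 0.39. Cyp4f18, which inactivates leukotriene B4, had a site 1.008 kb from its start (chr8:72008488-72008618) with 5, 38 and 112 tags and RNA of 1.5 and 1.47, 3.30 and 5.90, and 65.8 and 89.2 CPM, rising in the same order. In Ki67-Negative cells the same held: 1.73 and 2.57 CPM at PND8 and 47.8 and 55.1 in repopulating brains. The Alcam site had H3K27ac in both repopulating libraries only, and the Cyp4f18 site in both PND8 and both repopulating libraries. Not every strong site went with its nearest gene: sites near Dhx35 (8, 50 and 161 tags), Phtf2 (7, 6 and 73) and Azi2 (8, 10 and 112) had no called RNA difference, and near Nucb2 a site of 101 adult tags and 10 repopulating tags stood beside RNA that was higher in repopulating cells by log2 1.10. Sites lower in PND8 than in the adult lay near Isx (84, 5 and 54 tags), Acsl1 (120, 8 and 48) and Ssbp2 (117, 10 and 36), and among those lower in repopulating cells than in PND8 was a site near Arpp21 (no adult peak, 54 and 8).

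By gene, 11474 of 20999 promoters (54.6%) had a peak in all 3 libraries and 7974 (38.0%) in none. The remaining classes were led by 606 promoters (2.89%) with a peak in PND8 and repopulating cells, 361 with equal numbers of peaks. The background for the gene lists is the share of all compared promoters that were at least 2-fold apart after centring: 628 of 11517 (5.45%) higher and 250 (2.17%) lower in PND8 than in the adult, 782 of 11661 (6.71%) higher and 159 (1.36%) lower in repopulating cells than in the adult, and 400 of 12080 (3.31%) higher and 165 (1.37%) lower in repopulating cells than in PND8.

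Promoters of cycling genes had peaks in the resting adult as well as in dividing cells, and over the list their tags differed little relative to all promoters. All 25 G2/M genes had a promoter peak in every library, and their median centred log2 ratio was -0.01 for PND8 over adult and 0.03 for repopulating over adult, against 0 for all promoters. Before centring these were -0.51 and -0.30. At Top2a the libraries had 31, 23 and 25 tags in the order adult, PND8, repopulating, and at Ccnb1 91, 70 and 112. The RNA of all 25 genes rose, by a median log2 of 5.95 in PND8 and 5.75 in repopulating cells (edgeR, adjusted p under 0.05 for each). Top2a stood at 4.86 and 9.78 CPM in the adult, 461 and 567 in PND8 and 426 and 524 in repopulating cells, a difference of log2 6.14 ± 0.28 and 6.03 ± 0.28. The Ki67-Positive groups were sorted for cycling, so the direction of this list's RNA is not independent of the sort. Ki67-Negative cells were also above the adult at Top2a, with 204 and 267 CPM at PND8 and 195 and 284 in repopulating brains. The part of the sort in the rise was not tested. A few promoters did differ: Plk1, a mitotic kinase, had 15, 29 and 58 tags (log2 1.30 and 1.92), Aurkb, the kinase of the chromosomal passenger complex, 15, 34 and 34, and Ccnb2 33, 56 and 73, while Cenpe, a kinetochore motor, was lower in PND8 at 122, 43 and 104. In all, 4 of 25 were at least 2-fold higher and 1 lower in PND8, and 3 were higher and none lower in repopulating cells, shares above the 5.45% and 6.71% of all promoters that were higher.

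The S phase list gave the same picture. Of 25 genes 24 had a peak in all 3 libraries, the exception being Tyms, thymidylate synthase, with no adult peak, 7 tags in PND8 and 16 in repopulating cells. The median centred ratio was 0.17 for PND8 and 0.06 for repopulating cells over the adult, and RNA was higher for 24 and 25 of the 25 genes, by a median of log2 2.46 in each. Uhrf1 had 144, 126 and 139 tags. Mcm5, of the replicative helicase, had 276, 150 and 172 (log2 -0.53 and -0.72) although its RNA was among those that rose. Cdt1, which loads that helicase, had 51, 83 and 53 tags and Chaf1b, of the chromatin assembly factor, 58, 91 and 107, the 2 genes at least 2-fold higher in PND8.

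**Figure D2:**
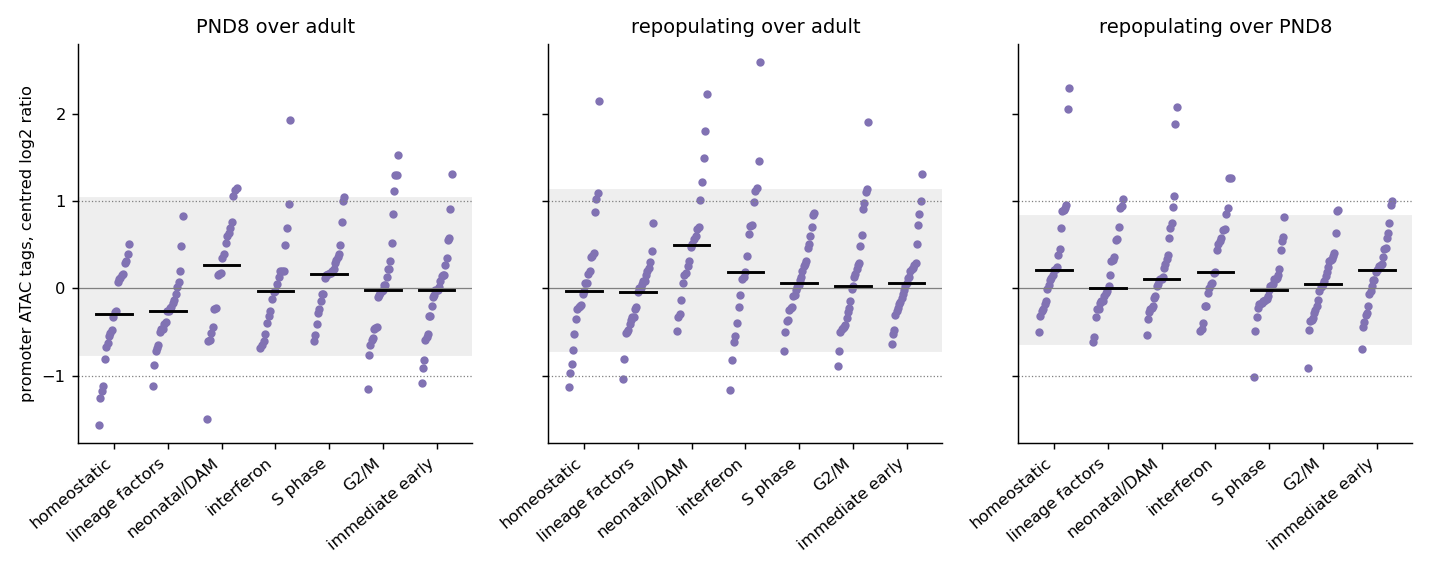
Centred log2 ratio of promoter tags (vertical axis) for each gene of 7 lists in the 3 pairs of libraries; points are genes, black lines list medians, the grey band holds the 5th to 95th percentile of all promoters and dotted lines mark 2-fold. The G2/M and S phase medians lie between -0.02 and 0.17, and the neonatal and activation list has the highest median over the adult, at 0.26 and 0.49.

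Over the interferon list, the median ratio of promoter tags between repopulating cells and the adult was small, and its sign depended on the centring. Of 25 genes 19 had a promoter peak in all 3 libraries, 2 in PND8 and repopulating cells and 4 (Isg15, Oas3, Ifi44, Ifitm3) in none. The median ratio was -0.03 for PND8 over adult, 0.19 for repopulating over adult and 0.19 for repopulating over PND8. Before centring these were -0.53, -0.14 and 0.34. Of 19 compared, 4 were at least 2-fold higher in repopulating cells than in the adult and 1 lower, against 6.71% and 1.36% of all promoters. In PND8 1 was higher, against 5.45%. Oas2 had no adult peak, 30 tags in PND8 and 40 in repopulating cells, with RNA of 10.9 and 11.7, 34.8 and 46.5, and 212 and 218 CPM, a step up from group to group. Oas1a likewise had no adult peak and 9 and 22 tags, with RNA of 4.28 and 5.87, 15.0 and 18.8, and 67.8 and 84.1 CPM. Irf7, the factor that amplifies interferon output, had 29, 32 and 66 tags, Oasl2 5, 15 and 31, and Ifi204, a DNA sensor, 34, 52 and 96. Bst2, tetherin, went the other way with 92, 45 and 42 tags although its RNA was higher in both groups, by log2 0.80 and 1.47. RNA of all 25 genes was higher in repopulating cells than in the adult (median log2 2.79) and than in PND8 (2.40). Of the 25, 8 were higher and 1 lower in PND8 than in the adult (all genes 25.1% and 24.3%). Isg15 RNA rose by log2 2.85 in repopulating cells with no promoter peak in any library.

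The homeostatic list had 22 promoters in all 3 libraries and lower tags in PND8: the median centred ratio was -0.30 for PND8 over adult, -0.03 for repopulating over adult and 0.22 for repopulating over PND8. In PND8 4 of 22 were at least 2-fold lower and none higher. Sall1, a zinc-finger factor that defines microglia, had 136, 49 and 120 tags, Sparc, a matrix glycoprotein, 64, 17 and 30, and Golm1, a Golgi protein, 92, 32 and 48. Over the list, RNA was lower than in the adult for 13 of 25 genes and higher for none in PND8 (all genes 24.3% and 25.1%). In repopulating cells 11 were lower and 1 higher (all genes 21% and 23.9%). Sall1 (log2 -0.18), Sparc (0.02) and Golm1 (-0.14), with lower promoter tags in PND8, were not among those called there. P2ry13, a purinergic receptor beside P2ry12, had 39, 33 and 178 tags (repopulating over adult, log2 2.16) and RNA lower in repopulating cells by log2 -0.50 ± 0.10 (edgeR adjusted p = 0.00099). Crybb1, a crystallin, had 49, 16 and 102 tags with RNA of 144 and 144, 176 and 158, and 27.5 and 19 CPM: the library with the most promoter tags was that with the least RNA. Among 25 lineage transcription factors 22 were open in all 3 libraries with medians of -0.26, -0.05 and 0.00. Bhlhe40, a repressor, had 63 tags in the adult, no PND8 peak and 67 in repopulating cells. Its RNA was higher in repopulating cells than in PND8 by log2 2.15 ± 0.57 (edgeR adjusted p = 0.012).

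The neonatal and activation list, genes raised in early postnatal and in plaque-associated microglia, had the highest centred medians over the adult among the 7 lists, though not among the short marker lists (border macrophage 0.52 in PND8 over 3 genes, oligodendrocyte 0.67 in repopulating cells over 5). Its promoters were open in all 3 libraries in 20 cases, and the other 5 (Gpnmb, Lpl, Axl, Lgals1 and Ms4a7) had peaks in PND8 and repopulating cells only, each of 25 tags or fewer. The median centred ratio was 0.26, 0.49 and 0.11 in the order PND8 over adult, repopulating over adult and repopulating over PND8. Before centring it was -0.23, 0.16 and 0.26, so the gain of PND8 over the adult is relative to all promoters. Of 20 compared with the adult, 3 were at least 2-fold higher and 1 lower in PND8 and 5 were higher in repopulating cells. Spp1 had 28, 48 and 100 tags and RNA of 6.48 and 5.99, 207 and 220, and 67.1 and 96.1 CPM, so tags were highest in repopulating cells and RNA in PND8. Gpnmb, a glycoprotein of lysosome-rich macrophages, had no adult peak and 13 and 25 tags, but RNA was high in PND8 only, at 0.463 and 0.855, 72 and 77.9, and 0.347 and 0.864 CPM. Itgax, which encodes CD11c, had 76, 21 and 115 tags and RNA of 28.6 and 25.7, 78.5 and 87.0, and 132 and 130 CPM. Ch25h, cholesterol 25-hydroxylase, had 10, 10 and 48 tags and RNA of 1.73 and 1.71, 1.32 and 0.694, and 22.4 and 33.2 CPM, high in repopulating cells at both levels. Over the list, RNA was higher for 16 of 25 genes and lower for none in PND8 (all genes 25.1% and 24.3%). In repopulating cells 10 were higher and 9 lower (all genes 23.9% and 21%). Border macrophages express several of these genes: promoters of that marker list had peaks in 3 of 10 cases in the adult, 7 in PND8 and 6 in repopulating cells, its RNA summed to 1407 and 1513 CPM in the adult, 2051 and 2047 in PND8 and 1063 and 1088 in repopulating cells, and its part in these values was not tested.

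Immediate early genes, which tissue dissociation can switch on, were open in all 3 libraries for all 25 genes with medians of -0.02, 0.06 and 0.22. Klf6 (414, 153 and 295 tags), Nr4a1 (33, 64 and 61) and Atf3 (114, 133 and 290) differed by at least 2-fold in 1 pair. Their RNA was lower than in the adult for 9 of 25 and higher for 3 in PND8 (all genes 24.3% and 25.1%). In repopulating cells 14 were lower and none higher (all genes 21% and 23.9%). RNA of this list was uneven between the PND8 libraries: Fos, an AP-1 subunit, had 170 and 14.2 CPM there and Egr1, an early growth response factor, 355 and 32. Slc1a3, a glutamate transporter of the astrocyte list, had 38.7 and 362 CPM in the same libraries. In the Ki67-Negative PND8 libraries it had 70.5 and 421 CPM, whereas Slc1a2 had 12.6 and 0.64 and Aqp4 4.08 and 0.55. Of the same list, Gfap, Gja1 and Aldoc were also lower in the second of these libraries, and Aldh1l1 was higher. The source of the Slc1a3 RNA was not tested.

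Distal sites within 50 kb of list genes differed from the promoters. Around homeostatic genes 59 of 472 sites (12.5%) were in the adult alone, against 6.35% around all genes, and 19.3% against 11.2% with equal numbers of peaks. Sites shared by PND8 and repopulating cells were 20 of 472 (4.24%) there against 11.6%. Around lineage transcription factors the adult-alone share was 11.1%. Around interferon genes it was 2 of 201 (0.995%), while repopulating alone made up 49 (24.4%) against 18.7%, and 14.3% against 8.23% with equal numbers. Sites near 1 gene share their surroundings, so these shares have no error of their own.

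RNA followed promoter tags in part. Of 444 tested genes with promoter tags at least 2-fold higher in PND8 than in the adult, RNA was higher for 38.3% and lower for 14.0%, against 25.4% and 24.5% of the 9972 genes within 2-fold. For the 234 genes with lower tags it was 17.5% and 45.7%. At 4-fold, 50.9% of 53 genes had higher RNA and 3.77% lower. In repopulating cells against the adult, 38.1% of 536 genes with higher tags had higher RNA and 12.3% lower, and against PND8 38.8% of 294 and 10.9%. Within 2-fold these were 23.8% and 21.8% against the adult, and 15.7% and 14.3% against PND8. The remaining genes with 2-fold higher tags had no called RNA difference, and they outnumbered those with higher RNA in all 3 pairs.

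**Figure D3:**
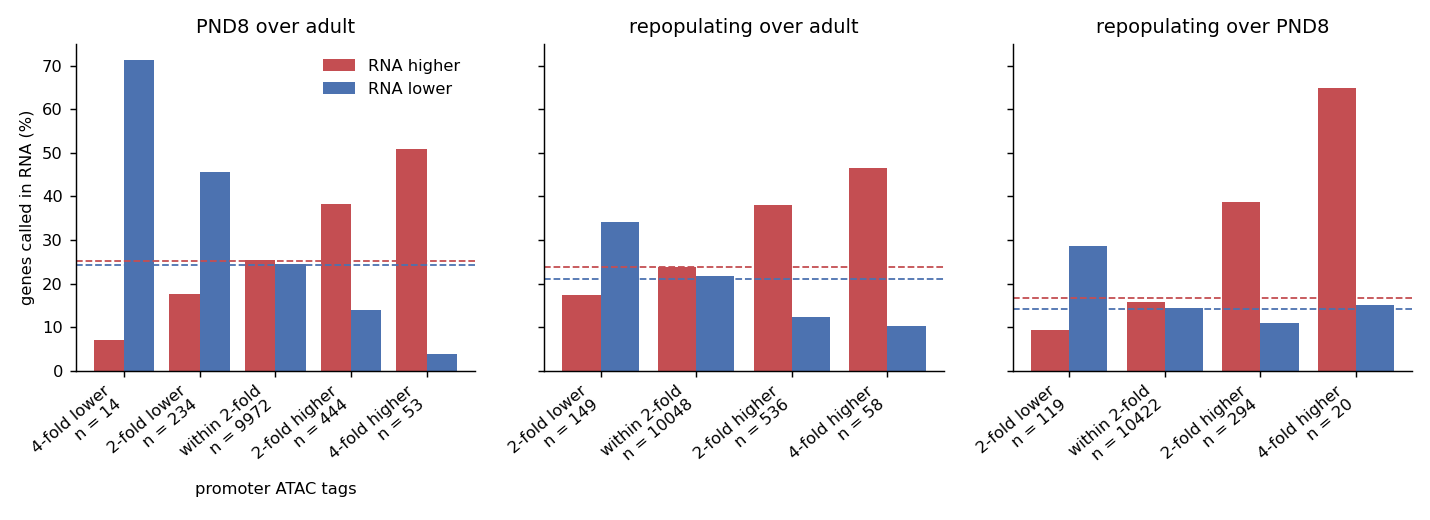
Percent of tested genes with higher (red) or lower (blue) RNA (vertical axis) by bin of promoter tag ratio (horizontal axis) for the 3 pairs; bins at 2-fold include those at 4-fold, bins under 10 genes are left out and dashed lines give the share over all genes tested. For PND8 over adult the red share goes from 17.5% at lower tags through 25.4% to 38.3% at higher tags, and the blue share from 45.7% to 14.0%.

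Presence of a peak gave similar shares. Over all genes tested, 25.1% were higher and 24.3% lower in PND8 than in the adult. For repopulating cells these were 23.9% and 21.0% against the adult, and 16.7% and 14.2% against PND8. Of 112 genes with a promoter peak in adult and repopulating cells but not PND8, RNA was lower in PND8 than in the adult for 44.6% and higher for 15.2%, and higher in repopulating cells than in PND8 for 36.6% and lower for 7.14%. Of 214 genes open in PND8 and repopulating cells only, RNA was higher than in the adult for 34.6% in PND8 and 30.4% in repopulating cells, and lower for 8.88% and 8.41%. Lone distal sites of at least 20 tags showed the same with their nearest genes. Beside 251 genes with an adult-alone site, RNA was lower in PND8 for 46.6% and higher for 12.4%. Beside 375 genes with a site in adult and repopulating cells these were 45.3% and 15.5%. Genes nearest to distal sites in all 3 libraries had 27.1% lower and 23.9% higher. The 343 tested genes nearest to lone sites of PND8 with repopulating cells were closer to the background, with 28.9% higher and 16.9% lower in PND8.

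H3K27ac, acetylation found at enhancers and promoters in use, was read from 2 region lists per group in adult (60 and 65 days), PND8 (8 days, Ki67-Positive) and repopulating cells (90 days, diet from 70 days of age, Ki67-Positive). The lists were of unequal length, with 19570 and 24901 regions in the adult, 26960 and 30318 in PND8 and 30127 and 27007 in repopulating cells, and all gene promoters had a region in 41.3% and 46.0%, 49.5% and 51.1%, and 50.6% and 47.8%. The cycling promoters that ATAC found open everywhere differed here. Of 25 G2/M promoters 6 and 11 had a region in the adult libraries, 25 and 25 in PND8, and 25 and 23 in repopulating cells. For S phase these were 10 and 15, 24 and 25, and 24 and 21. Mki67, Ccnb1, Cdk1 and Plk1 were among 12 G2/M promoters with a region in no adult library and in all 4 others. Of the interferon promoters, Ifit1, Oas1a, Rsad2 and Cxcl10 had a region in both repopulating libraries and no other, and of the neonatal list Apoe and Igf1 in both PND8 libraries and no other. Homeostatic promoters had a region in 25 of 25 cases in every library. The adult ATAC promoters open in all 3 libraries carried H3K4me3, a mark of promoters ready or in use, in 94.8% and 94.9% of cases in the adult libraries of 75 days.

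**Figure D4:**
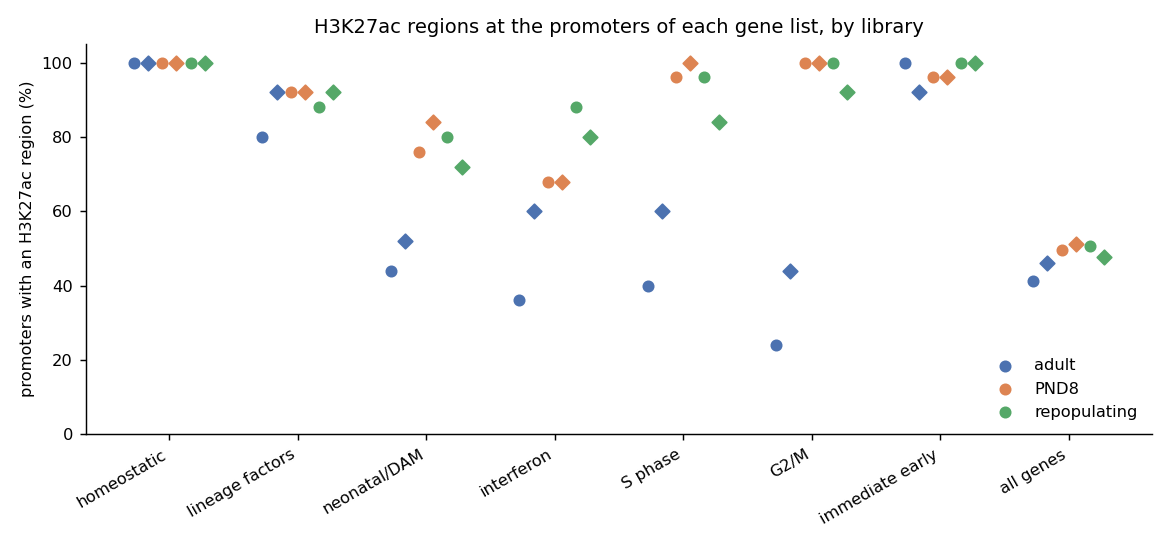
Percent of list promoters with an H3K27ac region (vertical axis) in 6 libraries, by gene list; circles are replicate 1 and diamonds replicate 2 of each group. G2/M promoters have 6 and 11 of 25 in the adult and 23 to 25 in PND8 and repopulating cells, and homeostatic promoters 25 of 25 in every library.

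At distal sites gained over the adult, the mark was more frequent in the library with more tags, but less frequent than at unchanged sites. Of the 34006 distal sites within 2-fold between PND8 and the adult, 36.5% and 48.1% had a region in the adult libraries and 50.0% and 56.3% in PND8. Of 582 sites at least 4-fold higher in PND8 than in the adult, 3.78% and 6.19% had a region in the adult libraries, 23.2% and 29.9% in PND8 and 26.1% and 19.1% in repopulating cells. Of 942 sites higher in repopulating cells than in the adult these were 4.25% and 6.16%, 17.3% and 23.6%, and 39.8% and 32.5%, against 36.0% and 48.0%, 48.4% and 54.8%, and 53.1% and 47.9% within 2-fold. Of 189 sites higher in repopulating cells than in PND8, 68.3% and 63.5% had a region in repopulating cells and 30.2% and 34.9% in PND8, whereas of 69 lower sites 7.25% and 5.80% did and 37.7% in each PND8 library. Within 2-fold these were 44.1% and 39.0% in repopulating cells and 40.5% and 46.3% in PND8. The groups did not overlap in any of these 4 sets between the libraries of the pair. Neither did they at sites within 2-fold between PND8 and the adult. At sites within 2-fold they did overlap for repopulating cells with the adult and with PND8. Losses against the adult did not separate: of 158 sites lower in PND8 the adult libraries had 38.0% and 65.2% and PND8 39.2% and 53.8%, and of 103 sites lower in repopulating cells the adult had 30.1% and 54.4% and repopulating cells 36.9% and 34%. At distal sites of PND8 and repopulating cells lacking an adult peak, each of the 6 libraries had a region at between 5.16% and 14.6%.

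**Figure D5:**
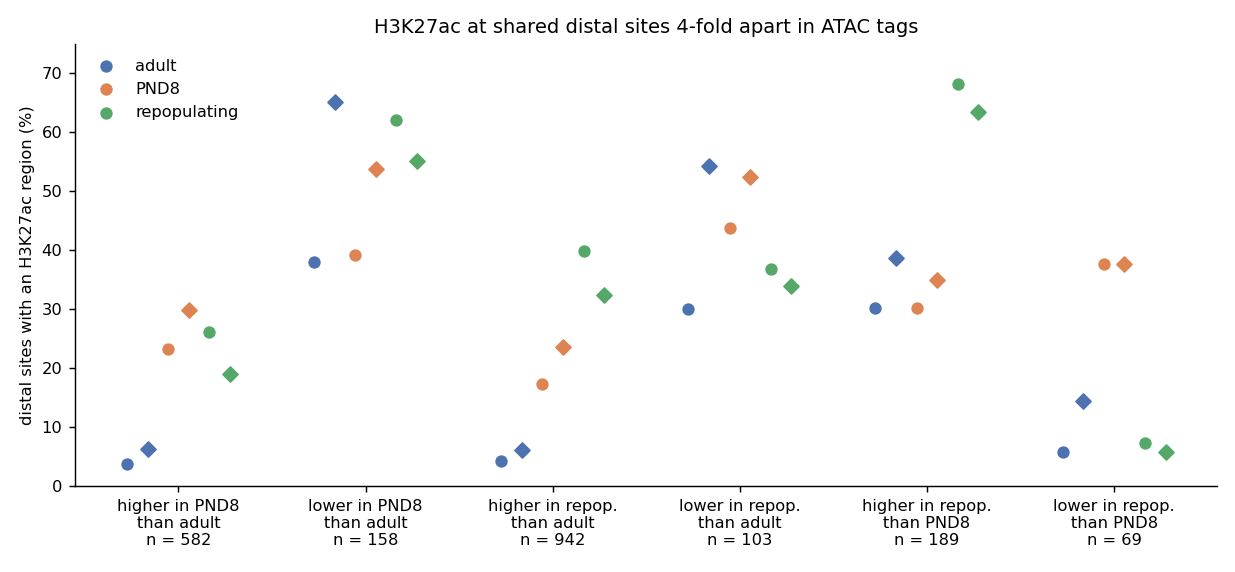
Percent of shared distal sites at least 4-fold apart that overlap an H3K27ac region (vertical axis) in 6 libraries, for each pair and direction; circles are replicate 1 and diamonds replicate 2. Sites higher in repopulating cells than in the adult reach 39.8% and 32.5% in repopulating libraries against 4.25% and 6.16% in the adult.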

How the data were processed

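ATAC was measured in 3 libraries, RNA in 10 libraries of 5 groups of 2, and H3K27ac in 2 libraries per state. Per the file headers, the authors called ATAC peaks with HOMER findPeaks in factor style, without input and per library, at an FDR of 0.001. The deposited signal is the tag count of a peak scaled to 10000000 tags, and the deposited score orders peaks within a list. Dividing the signal by the value of 1 tag (1.50 in the adult, 1.36 in PND8, 1.16 in repopulating cells) gave the tags printed. The headers of the ATAC lists name no build, and they were read as mm10. RNA values are the deposited raw counts, per the file headers from HOMER analyzeRepeats over mm10 exons, with no strand setting shown, so antisense and overlapping genes cannot be separated. The submitters' processing notes name STAR 2.7.0f, Bowtie2 2.3.4.1 and HOMER 4.11.

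Peaks overlapping by at least 1 bp were merged, and presence, tag ratios, promoter sums (1 kb each side of the count table's start), H3K27ac overlap (1 bp) and motif letters (13 searched) were counted in Python 3.11.15. RNA was tested with edgeR 4.0.16 (quasi-likelihood, Benjamini-Hochberg over all genes) on all 10 libraries with totals of 6865903 to 10287876 counts, and the script was tested on simulated data. The members and the gene lists were chosen with earlier results of these data known. Named genes are the 5 sites of highest tags per class, the 5 largest ratios per direction and list genes whose promoters differed. Naming also the 5 strongest sites with no peak of another library within 1 kb was decided after the values were seen. The labels do not say that same-numbered libraries share animals, and the block was not used in the test. Alternatives covered equal peak numbers, stricter lists, overlap, promoter window, centring, DESeq2 1.42.0, filters, left-out libraries and a replicate block. Some results that the naming rule gives are not reported here.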

Additional observations from a re-analysis of the deposited data

Results flagged for a closer look

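Among 330 named genes, 13 met a rule that required RNA called in opposite directions against the adult in PND8 and in repopulating cells. The rule also required a call between those states, each with edgeR. How many of all genes tested would meet the rule was not counted. The log2 differences of repopulating cells over PND8 were -6.70 for Igf1, a growth factor, -5.08 for Cbr2 and -4.45 for Mrc1, both border macrophage genes, -2.97 for Apoe, -2.71 for Ccl3, -1.30 for Cd63, -0.97 for Maf and -0.63 for Lyz2. They were 1.46 for Ifih1, an RNA sensor, 0.90 for Ssbp2, 0.82 for Bhlhe41, 0.62 for Galnt7 and 0.55 for Sema4d. Promoter tags did not follow the RNA at Igf1, with 9 in the adult, 12 in PND8 and 26 in repopulating cells, while RNA was 3.35 and 2.93, 120 and 136, and 1.27 and 1.15 CPM. Apoe had 36, 43 and 46 tags and RNA of 149 and 173, 482 and 446, and 52.0 and 66.9 CPM. Mrc1 had 37, 14 and 25 tags and RNA of 49.7 and 52.7, 834 and 814, and 41.3 and 33.7 CPM. Ifih1 had 89, 80 and 150 tags, the highest in the state with the most RNA.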

How the results depend on the processing

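Of 110 alternative values, 49 moved by more than their limit and 61 did not. Promoter sites in all 3 libraries made up 68.3% with equal numbers of peaks, 71.1% with the 30000 highest-scoring peaks, 64.6% with centres under 100 bp apart, 87.5% with peaks extended by 500 bp and 70.3% with a 500 bp promoter window, and distal sites 48.6%, 47.1%, 44.4% and 50.3% under the first 4. Distal sites of the adult alone numbered 8949, 3387 and 2914 with equal numbers, 30000 peaks and extension, and 3193 without any other centre within 1 kb, an alternative added after seeing the data. Those of PND8 alone numbered 2345 with 30000 peaks, of repopulating alone 6222 and 2513, and of PND8 with repopulating 6421 and 2508, with equal numbers and 30000 peaks. Without centring, and per base without centring, sites 4-fold higher and lower were 192 and 768, then 153 and 938 (PND8 over adult), 466 and 304, then 439 and 320 (repopulating over adult), and 315 and 46, then 365 and 41 (repopulating over PND8). Lower sites of the last 2 pairs were 49 and 16 with equal numbers of peaks, and 168 for repopulating over adult when centred on all shared sites. With equal numbers, promoters of PND8 with repopulating fell to 361 and adult alone rose to 151, RNA was higher for 37.5% of repopulating-alone genes over PND8, and H3K27ac at distal PND8 and repopulating sites was 7.43% and 9.62% in the adult, 14.8% and 18.2% in PND8 and 19.7% and 16.6% in repopulating cells. The cause of these shifts was not tested beyond the construction of each alternative.

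RNA calls numbered 6049, 5489 and 3778 for PND8 and repopulating over adult and repopulating over PND8. They were 2078, 1827 and 1180 at a fold of at least 2, when 67.1% of the calls for repopulating over adult were higher against 53.2% otherwise. Leaving out 1 library gave 4508 to 4746, 3640 to 4487 and 2269 to 2632, with 2430 without PND8 replicate 1, 2503 without PND8 replicate 2, 2269 without repopulating replicate 1 and 2632 without repopulating replicate 2 in the last comparison. A batch term for the run code, added after seeing the data, gave 4402 for repopulating over PND8.

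The replicate block gave 6539, 6021 and 4362 calls. Deviations of same-numbered libraries correlated at 0.34 between the PND8 sorts and 0.26 between the repopulating sorts and at -0.01 to 0.10 elsewhere. Same-numbered sorts of 1 state thus deviated together (Egr1 was 581 and 55.2 CPM in the Ki67-Negative and 355 and 32 in the Ki67-Positive PND8 libraries), whereas the states compared here did not, and no label says what the numbers share. The motif count in 100 bp around peaks was not run. Sites under 10 tags often had no peak in another ATAC list. With 1 library per state, a missed site and an absent one cannot be told apart there.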

Other observations

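Of 278 windows of 10 Mb, that from 100 to 110 Mb of chromosome 7 held the most lone adult sites with at least 20 tags, 12 of its 537 sites (2.23%) against 325 of 110626 in all (0.294%), and it contains Trim30d, Gvin1, Gm1966 and Olfr630. The next were 100 to 110 Mb of chromosome 9 with 8 of 649 sites and 30 to 40 Mb of chromosome 7 with 7. Lone repopulating sites were most numerous at 120 to 130 Mb of chromosome 7, with 14 of 748 sites (1.87%) against 0.667%, while lone sites of PND8 with repopulating cells were most numerous at 100 to 110 Mb of chromosome 9 (11 of 649, 1.69% against 0.545%), then at 110 to 120 Mb of chromosome 7 (10 of 560, 1.79%). Mki67 itself lies on chromosome 7 from 135689788 to 135716379 on the minus strand. The windows were chosen for these counts, and the part of the mouse line, which differs between the title of the adult library and those of the others, was not tested.

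RNA polymerase II, read from its subunit Rpb2, overlapped 43.1% and 33.4% of promoter sites open in all 3 libraries in the adult libraries (60 and 65 days) and 58.8% in the PND8 library (8 days). The lists were of unequal length, with 14549 and 10544 peaks in the adult and 31592 in PND8, which the shares follow.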
